A study of Gallus gallus with 6 samples.

Results

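Regional transcriptional regulators of the cochlear duct (GBX2, ZIC1, HMX3, EYA2, EMX2, OTX2, DLX6 and SOX14) were followed in the chicken at embryonic day 6.5. They are 8 of the 17684 genes in the authors' table, taken by symbol, and were chosen by their measured RPKM differences between the pieces of the duct in these same libraries. The distal against proximal difference of each gene is therefore a description and was not tested. The groups were the distal, the middle and the proximal piece of the duct, with 2 libraries each. All were from unmanipulated embryos at the same age, with no allele or treatment given in the labels. Each piece held part of the basilar papilla, the hearing epithelium of birds, together with part of the prospective tegmentum vasculosum, a secretory epithelium, and the distal piece also held the prospective lagena, a macular organ. Pieces were pooled by region before extraction, so a library is an average over ducts and over cell types. In such bulk samples fewer cells of a type and less RNA per cell cannot be told apart.

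Transcription factors of this kind divide the otic vesicle into domains before sensory organs form, and several of them were first known as regional factors of the brain. GBX2 and OTX2 are homeobox genes that exclude each other at the border of midbrain and hindbrain, and in the mouse GBX2 is needed for the dorsal, vestibular part of the ear. HMX3 and DLX6 are homeobox genes needed for the vestibular ear in the mouse. EMX2 is a homeobox gene that sets the orientation of hair bundles in mouse maculae and is needed for growth of the mouse cochlea. ZIC1 encodes a zinc finger factor of the dorsal neural tube, and SOX14 a SOX repressor known from neuron subtypes. EYA2 is a coactivator and phosphatase that acts through DNA-binding partners and does not bind DNA on its own.

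Levels are RPKM values (reads per unit of gene length and of library size) as deposited by the authors. The libraries form a first set with 9262860 to 23537713 alignments and a second set with 56103107 to 73918748, each with 1 library per region. A read per kilobase was worth between 0.0135 and 0.108 RPKM. Genes of inner ear matrix proteins were present in all libraries. OC90, the otoconial matrix gene, measured 1153 and 967 RPKM in the distal, 821 and 723 in the middle and 414 and 591 in the proximal libraries (first and second set), and TECTA, the tectorial membrane gene, 121 and 232, 136 and 216, and 101 and 153 RPKM in the same order. Of 20 genes listed as brain and neural tube markers, 7 were in the table. The highest value of any of them in any library was 1.45 RPKM, and their summed level was 1.82 and 1.85 RPKM in the distal, 1.22 and 1.36 in the middle and 2.24 and 1.13 in the proximal libraries.

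All 8 genes met the condition for testing, 1 RPKM or more in at least 2 libraries. GBX2 did so in 5 libraries, DLX6 in the 4 libraries of the ends and SOX14 in the 4 distal and middle ones. The last 2 thus passed through the pieces where they are higher. The proximal libraries lay above the distal ones without overlap for 5 genes (GBX2, ZIC1, HMX3, EYA2 and DLX6) and below them for 3 (EMX2, OTX2 and SOX14). Over the 12559 genes tested, 10.3% had both distal libraries below both proximal ones and 13.1% had both above, but the choice of the genes fixes their own count. The 8 genes had 4 shapes along the duct. GBX2 and ZIC1 peaked proximally and were lower in each further piece, and EYA2 stood at a plateau that ended before the distal piece. HMX3 and DLX6 were higher at both ends than in a trough between them, and EMX2, OTX2 and SOX14 were highest distally.

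**Figure D1:**
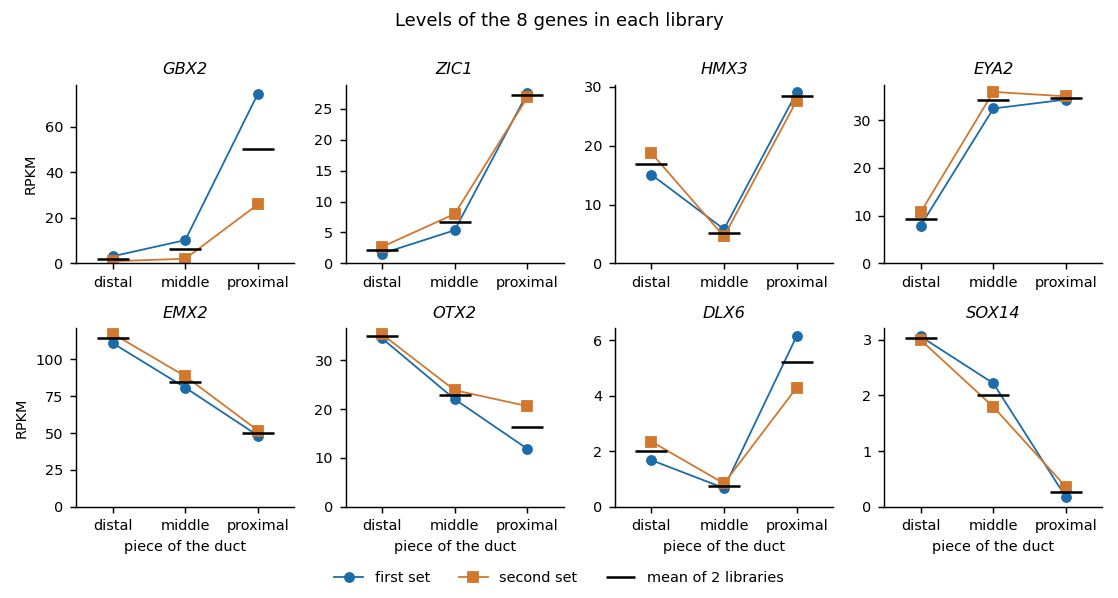
Deposited RPKM of each gene (vertical axes, each starting at 0) in the distal, middle and proximal piece, with circles and squares for the first and second library set and black bars for the mean of the 2 libraries. GBX2 differs between sets at every position, whereas HMX3 repeats its trough in the middle piece at 5.81 and 4.57 RPKM.

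GBX2 had the widest range along the duct among the 8 genes on the log2(RPKM + 1) scale. It measured 3.10 and 0.942 RPKM in the distal, 10.2 and 2.02 in the middle and 74.5 and 25.9 in the proximal libraries of the first and second set. Each set thus ran from a low distal to a high proximal level, but the 2 sets disagreed on the level itself, with first-set values 3.30, 5.06 and 2.87 times those of the second set in the distal, middle and proximal piece. The distal and middle libraries overlapped, since the second-set middle value was below the first-set distal one. The distal minus proximal difference on the log2(RPKM + 1) scale was -4.20 in the first and -3.79 in the second set. The proximal level was 7.30 and 12.8 times the middle one in the 2 sets, so most of the range lay between these pieces.

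ZIC1 had the same order, with the sets alike only in the proximal piece. It measured 1.58 and 2.67 RPKM in the distal, 5.35 and 7.98 in the middle and 27.5 and 26.8 in the proximal libraries, and no regions overlapped. The first-set value was 0.593 and 0.671 times the second-set one in the distal and middle piece and 1.03 times in the proximal piece. Its distal minus proximal difference was -3.46 and -2.92 on the log2(RPKM + 1) scale. Its proximal level was 5.14 and 3.36 times the middle one, and its middle level 3.38 and 2.99 times the distal one, so that the decline continued over the whole duct.

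Of 10 lists of cell type markers, 4 had a lower summed level distally than proximally in both sets, as GBX2, ZIC1, HMX3, EYA2 and DLX6 did. The summed level of 14 neuron marker genes was 556 and 562 RPKM in the distal, 1499 and 1656 in the middle and 1880 and 1512 in the proximal libraries, and 12 of the 13 tested were lower distally in both sets. The 8 glia and neural crest markers summed to 279 and 354 RPKM in the distal, 532 and 431 in the middle and 593 and 520 in the proximal libraries. Without SOX10, which is also an otic gene, the other 7 summed to 133 and 127, 389 and 239, and 427 and 305 RPKM in the same order. The 7 red blood cell markers summed to 1192 and 974 RPKM in the distal, 1687 and 1139 in the middle and 3980 and 2182 in the proximal libraries. The hair cell sums, given below with the middle offsets, were the fourth. No gene of these 4 lists was at 0 in all libraries. Between the middle and the proximal piece, where GBX2 and ZIC1 did not overlap, the neuron and glia sums did. The red blood cell and hair cell sums did not overlap there. Single neuron markers went both ways there. NEUROD1 (30.5 and 24.9 RPKM in the middle, 81.1 and 34.8 in the proximal libraries), NHLH1 (29.4 and 30.5, 83.0 and 40.2) and CHGA (343 and 346, 663 and 416) were higher proximally without overlap. STMN2 was higher in the middle without overlap (293 and 190, 137 and 152). ELAVL4, SNAP25, SYT1, STMN3 and SCG2 were also higher in the middle than in the proximal piece within each set. The part of these cells in the distal minus proximal values of GBX2, ZIC1, HMX3, EYA2 and DLX6 was not tested.

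EYA2 did not mark 1 end of the duct but was low in the distal piece alone. It measured 7.90 and 10.7 RPKM in the distal, 32.4 and 35.9 in the middle and 34.3 and 35.0 in the proximal libraries. The middle and proximal libraries overlapped, and their means (34.2 ± 2.46 and 34.7 ± 0.468 RPKM, SD, n = 2 each) differed by less than the spread of the middle libraries. The distal minus middle difference was -1.91 and -1.66, and the middle minus proximal difference -0.08 and 0.04, on the log2(RPKM + 1) scale. The neuron and glia sums given above were also lowest distally and overlapped between the middle and the proximal piece. Single neuron markers went both ways between the middle and the proximal piece. The authors' counting is not known to use strand, and in RefSeq (GRCg7b) 2 other annotated genes overlap EYA2, 1 overlaps HMX3 and 1 overlaps EMX2, so reads of these 3 genes may include others.

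HMX3 was expressed at both ends and least in the middle piece. It measured 15.1 and 18.8 RPKM in the distal, 5.81 and 4.57 in the middle and 29.0 and 27.7 in the proximal libraries. None of the 3 regions overlapped, with the order proximal, distal, middle in both sets. The distal level was 2.60 and 4.10 times the middle one, and the proximal level 5.00 and 6.05 times.

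DLX6 repeated this order at a level several times lower. It measured 1.68 and 2.35 RPKM in the distal, 0.669 and 0.835 in the middle and 6.15 and 4.29 in the proximal libraries, again without overlap between regions. The middle level corresponded to 15.7 and 55.2 reads per kilobase of gene, so it was low but above single reads. The distal level was 2.51 and 2.81 times the middle one, and the proximal level 9.19 and 5.14 times. Across the whole table, 0.884% of the 12559 genes tested had both middle libraries below all 4 libraries of the ends. HMX3 and DLX6 may have been picked for this feature too, and DLX6 passed the filter only through the ends. Their count of 2 among 8 is therefore a description.

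EMX2 was the most abundant of the 8 genes in the distal and middle pieces and declined towards the proximal piece, with the larger step between the middle and proximal pieces. It measured 111 and 118 RPKM in the distal, 80.9 and 88.6 in the middle and 48.2 and 51.7 in the proximal libraries, above 93.7% and 96.1% of the genes tested in the distal ones. No regions overlapped, and the sets differed by less than the regions did. The distal minus proximal difference was 1.19 and 1.17 on the log2(RPKM + 1) scale, made up of 0.45 and 0.40 between distal and middle and 0.73 and 0.76 between middle and proximal. The middle piece lay 61.8% and 65.4% of the way from the proximal to the distal value on that scale.

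OTX2 was graded in the same direction, but its proximal level depended on the library. It measured 34.5 and 35.3 RPKM in the distal, 22.0 and 23.9 in the middle and 11.8 and 20.6 in the proximal libraries. The distal and middle libraries repeated closely between sets, while the 2 proximal ones differed, and the middle and proximal means (22.9 ± 1.30 and 16.2 ± 6.19 RPKM, SD, n = 2 each) were about as far apart as the proximal spread. The distal minus proximal difference was 1.47 in the first and 0.75 in the second set. The middle piece lay 57.4% of the way to the distal value in the first set and 27.0% in the second.

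SOX14 was lowest in the proximal piece and low throughout. It measured 3.06 and 3.00 RPKM in the distal, 2.22 and 1.79 in the middle and 0.166 and 0.352 in the proximal libraries. The first-set proximal value corresponds to 2.4 reads per kilobase of gene and the second-set value to 26.0, so the proximal level rests on few reads, and the pseudocount of 1 shrinks the difference. On the log2(RPKM + 1) scale the distal minus proximal difference was 1.80 and 1.56, most of it between the middle and proximal pieces (1.46 and 1.05).

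Marker lists whose summed level was higher distally in both sets stand beside EMX2, OTX2 and SOX14. The 13 prosensory and supporting cell genes summed to 986 and 1196 RPKM in the distal, 1005 and 1144 in the middle and 780 and 844 in the proximal libraries. Among them 6 were higher and 1 lower distally in both sets, with a median difference of 0.24. The lower one was HES5 (-1.10 ± 0.22, SE with the block), and the others differed in sign between the sets. In limma with the set as a block, 0.247% of the 12559 genes tested were called higher distally and 0.279% lower. Of the 13 prosensory and supporting cell genes 2 passed, both higher distally. They were FGFR3, an FGF receptor gene of supporting cells (2.79 ± 0.20, adjusted p = 0.0163), and TECTB, a tectorial membrane gene (3.73 ± 0.33, adjusted p = 0.0318), and 0 passed without the block. The 9 macula and otoconia genes summed to 1982 and 1962 RPKM in the distal, 1524 and 1408 in the middle and 1366 and 1373 in the proximal libraries. OC90, also on the tegmentum list, made up 1153 and 967 RPKM of the distal and 414 and 591 of the proximal sums. Of the 9 genes, 4 were higher and 3 lower distally in both sets, with a median difference of 0.18. The 3 lower ones were OTOL1 (-4.40 ± 0.25, SE with the block), NOXO1 (-1.83 ± 0.24) and NOX3 (-1.49 ± 0.28). The 14 mesenchyme and cartilage genes summed to 1126 and 1499 RPKM in the distal, 805 and 1224 in the middle and 924 and 1283 in the proximal libraries, with overlap between the ends. COL2A1 made up 727 and 941 RPKM of the distal and 559 and 791 of the proximal sums. Of the 13 tested, 5 were higher and 5 lower distally in both sets, with a median difference of 0.05. With the block, the calls in the other cell type lists were all lower distally. They were 4 of the 13 tested neuron markers (GAP43, NEUROD1, NHLH1 and CHGA) and 1 gene each of the glia, hair cell, macula and tegmentum lists (EDNRB, CALB2, OTOL1 and ATP1B1). The leukocyte, tegmentum and brain sums differed between the ends in opposite directions in the 2 sets. In the tegmentum list CLDN3 alone made up 1447 and 792 RPKM of the distal and 2985 and 571 of the proximal sums. Of the 8 tegmentum genes tested, 3 were higher and 3 lower distally in both sets. OTX2 had been planned as a tegmentum marker and was left out of that list as 1 of the 8 genes studied. No gene of these lists was at 0 in all libraries, and the part of these cells in the values of the 3 genes was not tested.

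**Figure D2:**
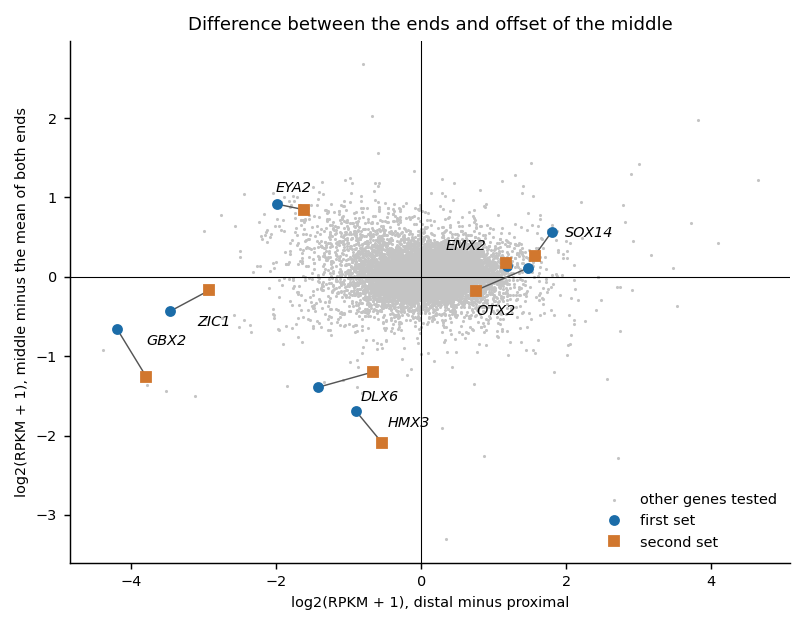
Distal minus proximal difference (horizontal axis) and offset of the middle piece from the mean of both ends (vertical axis), both in log2(RPKM + 1) units. Small grey points are the other genes tested (mean over both sets), and circles and squares joined by a line are the first-set and second-set values of each of the 8 genes. HMX3 and DLX6 lie well below the horizontal line, EYA2 above it, and EMX2 and OTX2 close to it.

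Whether the middle piece departed from the mean of the ends was asked with a contrast other than the difference between them. The choice of the genes can still enter it. A gene with like levels in the middle and at either end gets an offset from its difference between the ends. HMX3 was lower in the middle piece by this measure, at -1.69 in the first and -2.09 in the second set on the log2(RPKM + 1) scale, a mean of -1.89 ± 0.33 (SE of limma without a set term; 0.20 with the library set as a block). DLX6 stood at -1.39 and -1.20 (mean -1.29 ± 0.36) and GBX2 at -0.65 and -1.26 (mean -0.96 ± 0.70). The middle and distal libraries of GBX2 overlapped, so its offset is no trough. EYA2 had the highest offset of the 8, at 0.92 and 0.85 (mean 0.88 ± 0.31). Its middle and proximal libraries overlapped, so this offset is that of a low distal level and not of a peak in the middle. SOX14 had 0.41 ± 0.33, EMX2 0.16 ± 0.29, ZIC1 -0.30 ± 0.38 and OTX2 -0.03 ± 0.34. OTX2 had opposite signs in the sets, 0.11 and -0.17.

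None of these offsets passed the threshold of an adjusted p below 0.05 over all genes. In limma, 0 of 12559 genes (0.0%) passed without a set term, with 53 at an unadjusted p under 0.05, and also 0 with the set as a block, with 424. The adjusted p of HMX3 was 1.0 without the block and 0.457 with it, and that of DLX6 was 1.0 and 0.919. DLX6 met the condition for testing in the libraries of the ends alone, so the filter favoured its negative offset. SOX14 met it in the distal and middle libraries alone, which bears on its offset too. Among the 12559 genes tested, 4 (OTOP1, MSX1, FGF8 and ATOH1) had a lower offset than HMX3 and 14 a lower one than DLX6, ranks that are a description since both genes may have been picked for the trough. OTOP1 encodes the otopetrin needed for otoconia and had -3.30 ± 0.36, while ATOH1, the gene that starts hair cell formation, had -1.90 ± 0.42, as large as HMX3. A higher offset than that of EYA2 was found in 67 of the genes tested, a description too, since its low distal level enters the offset.

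**Figure D3:**
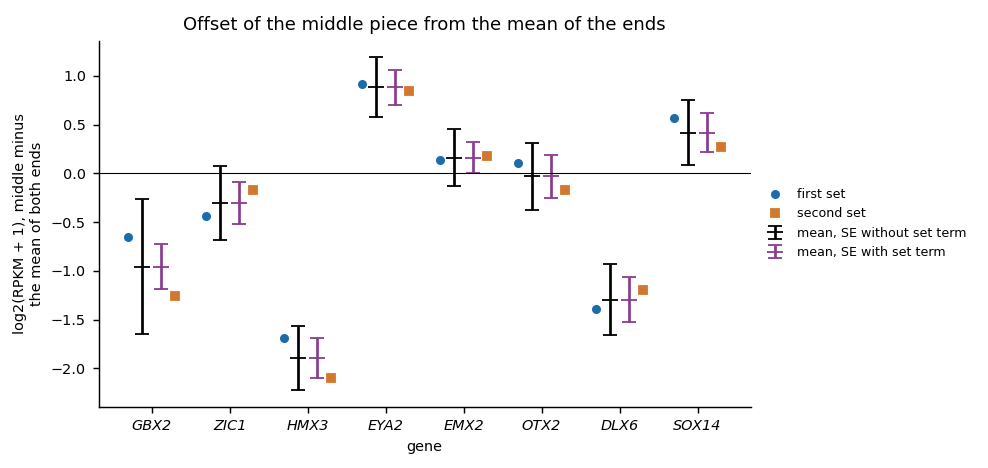
Offset of the middle piece from the mean of both ends in log2(RPKM + 1) units (vertical axis) for each gene. Circles and squares are the first and second set, and bars are the mean ± SE from limma without (black) and with (purple) a term for the set. Both sets of HMX3 and DLX6 lie below -1 and both of EYA2 above 0.8.

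Hair cell, macula and neuron markers are given beside these offsets. Of the 11 tested hair cell markers, 3 (ATOH1, GFI1 and LHX3) also had both middle libraries below all those of the ends, where 0.884% of all genes tested did. GFI1 (0.102 and 0.461 RPKM in the middle) and LHX3 (0.593 and 0.532) reached 1 RPKM only in libraries of the ends. The filter thus favoured them, and the lists were chosen with earlier results of these data known, so the count is a description. Between the middle and the distal piece, POU4F3, CHRNA10 and OTOF went the other way, with a higher level in the middle in both sets. The list had a median offset of -0.56, against 0.03 over all genes tested. Medians below 0 were also found for red blood cell (-0.36), mesenchyme and cartilage (-0.28) and leukocyte markers (-0.23). The same held for macula and otoconia (-0.18), tegmentum (-0.08) and brain markers (-0.47, with 1 gene tested). The 13 hair cell genes summed to 105 and 109 RPKM in the middle, 141 and 142 in the distal and 401 and 234 in the proximal libraries. Single genes weighed on these sums, with ATOH1 at 7.95 and 7.77 RPKM in the middle and 40.7 and 31.1 in the distal libraries. CALB2 stood at 12.4 and 9.36 RPKM in the distal and 172 and 59.5 in the proximal ones. Of the 9 macula and otoconia genes, OTOP1 alone had its middle libraries below all others. The median offset of the neuron markers was 0.77, in the direction of EYA2. Those of the glia and neural crest markers (0.35) and of the prosensory and supporting cell markers (0.24) had the same sign. No gene of these lists was at 0 in all libraries, and the part of these cells in the offsets of HMX3, DLX6 and EYA2 was not tested.

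Ratios between genes of 1 library do not depend on how the library was scaled. GBX2 stood at 0.0900 and 0.0266 times the RPKM of OTX2 in the distal, 0.463 and 0.0846 times in the middle and 6.29 and 1.26 times in the proximal libraries. OTX2 was thus the more abundant in all distal and middle libraries and GBX2 in both proximal ones. The ratio of HMX3 to DLX6 was 9.0 and 7.99 in the distal, 8.68 and 5.47 in the middle and 4.72 and 6.45 in the proximal libraries, a narrow range beside that of either gene. The ratio of EMX2 to OTX2 was also narrow, at 3.22 and 3.33 distally, 3.67 and 3.71 in the middle and 4.07 and 2.51 proximally.

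DLX5 is the neighbour of DLX6 in the genome and a homeobox gene of the same family. It measured 25.9 and 23.3 RPKM in the distal, 13.9 and 10.6 in the middle and 23.4 and 16.1 in the proximal libraries, and so had the trough of DLX6 without its proximal excess. Its offset of the middle was -0.79 and -0.82 in the 2 sets (limma adjusted p = 1.0), and its distal minus proximal difference was 0.14 and 0.51. DLX6 accordingly stood at 0.0647 and 0.101 times DLX5 in the distal, 0.0482 and 0.0790 times in the middle and 0.263 and 0.266 times in the proximal libraries. The 2 proximal ratios were alike and lay above all the others.

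Neighbours of the 8 genes were taken from the order of genes in the GRCg7b annotation. Of the 16 nearest named protein-coding neighbours, 12 were in the table and 8 were tested, DLX5 among them. Their distal minus proximal differences lay between -0.21 and 0.46 on the log2(RPKM + 1) scale, and 0 of the 8 reached 1 in size, which 7.17% of all genes tested did in either direction. ZIC4 and HMX2, the family members beside ZIC1 and HMX3, were not analysed here.

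Relatives of the 8 genes were listed as paralogues, together with genes whose proteins partner EYA proteins. Of 32 listed, 15 were in the table and 14 were tested. Within each set, 8 of them had the lower and 3 the higher level distally, where all genes tested had 24.7% and 33.3%, and the list's median difference was -0.29 against 0.10 over all genes. In limma 0 of the 14 passed between these pieces without the block, where 0 of 12559 genes passed (0.0%, with 508 at an unadjusted p under 0.05), and 0 passed with it, where 0.247% of all genes were called higher and 0.279% lower.

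Within families the relatives differed from the genes chosen. ZIC5 had the sign of ZIC1 at a smaller size, with a distal minus proximal difference of -1.16 ± 0.24 (SE with the block), at proximal levels of 2.70 and 4.30 RPKM. SOHO-1, a sensory organ homeobox gene of the HMX family, measured 5.26 and 5.91 RPKM in the distal, 8.62 and 11.1 in the middle and 18.9 and 14.8 in the proximal libraries (-1.43 ± 0.25, blocked limma adjusted p = 0.0847). HMX1 had -1.23 ± 0.26. Both were graded, and neither had the trough of HMX3, since their offsets of the middle differed in sign between the sets (-0.21 and 0.22 for SOHO-1, -0.44 and 0.07 for HMX1). The trough of HMX3 was not tested against theirs.

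EYA1 and EYA4 were higher distally within each set, the other way from EYA2, but their libraries overlapped between the ends. EYA4 measured 47.5 and 84.1 RPKM in the distal, 35.1 and 63.0 in the middle and 24.1 and 52.2 in the proximal libraries (0.81 ± 0.20, blocked limma adjusted p = 0.143), and EYA1 measured 49.7 and 85.6, 46.5 and 69.3, and 32.2 and 62.3 RPKM in the same order (0.53 ± 0.20). SIX6 had -0.75 ± 0.22 and SOX3, a SOX activator gene, -0.93 ± 0.32, and the ends overlapped for SOX3 but not for SIX6.

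**Figure D4:**
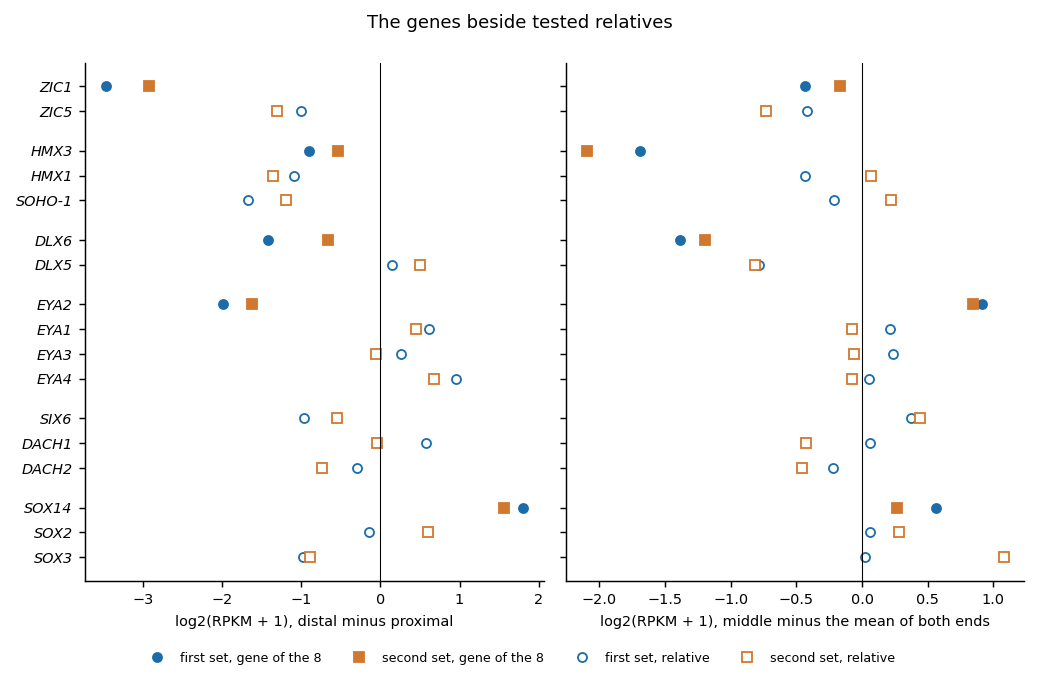
Distal minus proximal difference (left) and offset of the middle from the mean of both ends (right), both in log2(RPKM + 1) units, for genes of the 8 (filled) and tested relatives (open), with circles and squares for the first and second set. DLX5 shares the negative offset of DLX6, while EYA1 and EYA4 lie opposite to EYA2 on the left.

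Other transcription factors of otic patterning were split between the ends. Of 41 listed, 29 were in the table and 24 were tested, of which 10 had the higher and 10 the lower level distally within each set, with a median difference of -0.09. In limma 0 of the 24 passed with or without the block. By size of the difference, MSX1, a homeobox target of BMP signalling, came first at 2.72 ± 0.38 (SE with the block), followed by TFAP2A, an AP-2 factor gene of neural crest and ectoderm, at -1.67 ± 0.32. IRX2 had -1.31 ± 0.42, TBX2 -1.09 ± 0.23 and RUNX1 -1.03 ± 0.32, with GATA2 at 1.29 ± 0.20, SALL1 at 1.28 ± 0.28 and PROX1, a prosensory factor gene, at 1.20 ± 0.28. MSX1 shared the low middle level with HMX3, at 6.30 and 7.15 RPKM in the middle, 99.8 and 90.8 in the distal and 22.3 and 8.17 in the proximal libraries. Its second-set proximal level was close to the middle one, so in that set its offset is mostly that of a high distal level.

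The genes most alike to each of the 8 were sought among 9040 tested genes with a symbol, by the root mean square difference of log2(RPKM + 1) profiles over the 6 libraries after centring each set. This measure has few degrees of freedom, and the genes share the libraries. For GBX2 the nearest was OTOL1, the otoconial matrix gene (0.19 log2 units), at 0.759 and 0.377 RPKM in the distal, 4.05 and 1.83 in the middle and 43.2 and 23.3 in the proximal libraries. ALDH1A3, a gene for retinoic acid synthesis, and ZIC1 followed at 0.45 and 0.50. For ZIC1 the nearest were VIP, a neuropeptide gene, ESPNL, an espin-like gene of hair bundles, and NHLH1, a factor gene of young neurons, at 0.39, 0.40 and 0.42. The correlation of the centred profiles with the first match was 0.998 for GBX2 and 0.972 for ZIC1.

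The genes with a trough had GFI1 and RBM24 among their nearest matches. For HMX3 the nearest were RBM24, which encodes an RNA-binding splicing regulator, GFI1, a zinc finger factor gene of hair cells, and DLX6, at 0.24, 0.27 and 0.35 log2 units. For DLX6 they were GFI1, RBM24 and NBL1, a gene of the DAN family of BMP antagonists, at 0.12, 0.14 and 0.15. GFI1 was low, at 0.102 and 0.461 RPKM in the middle, 0.949 and 2.03 in the distal and 3.14 and 3.90 in the proximal libraries. The pseudocount of 1 therefore shrinks its range too. RBM24 measured 1.88 and 2.66 RPKM in the middle, 4.75 and 6.83 in the distal and 10.8 and 11.0 in the proximal libraries, which is the order of HMX3 in each set. For EYA2 the nearest were KCNS2, a potassium channel subunit gene, SYBU, which encodes the axonal transport protein syntabulin, and NMNAT2, an enzyme gene of axon maintenance, at 0.06, 0.13 and 0.13. KCNS2 measured 0.177 and 2.10 RPKM in the distal, 3.78 and 9.72 in the middle and 4.26 and 9.11 in the proximal libraries. The pseudocount of 1 thus shrinks its first-set range, and its distance from EYA2 rests on that scale.

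Among the genes highest distally, EMX2 and OTX2 each had a first match at a smaller distance than any of the other 6 genes. This distance depends on the size of a gene's range, so it does not rank matches between genes. The correlation of the same centred profiles was 0.9982 for EMX2 and 0.9979 for OTX2 with their first match, and 0.9998 for EYA2 with its own. KCNS2, the match of EYA2, was at 0.177 RPKM in the first-set distal library, where the pseudocount of 1 shrinks its range. For EMX2 the nearest were NPNT (nephronectin, a matrix protein), FGFRL1 (an FGF receptor relative) and ADAMTS17 (a secreted protease) at 0.04, 0.06 and 0.08 log2 units. For OTX2 they were NTF3 (the neurotrophin that supports cochlear neurons), COBL (an actin nucleator) and FAM83H at 0.03, 0.03 and 0.04. NTF3 measured 5.08 and 4.91 RPKM in the distal, 2.76 and 2.96 in the middle and 1.23 and 2.59 in the proximal libraries, so it also repeated the higher second-set proximal value of OTX2. For SOX14 the nearest were PPFIA2 (liprin alpha 2), EVPL (envoplakin) and SORCS3 (a sorting receptor), with 0.12 to 0.13.

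**Figure D5:**
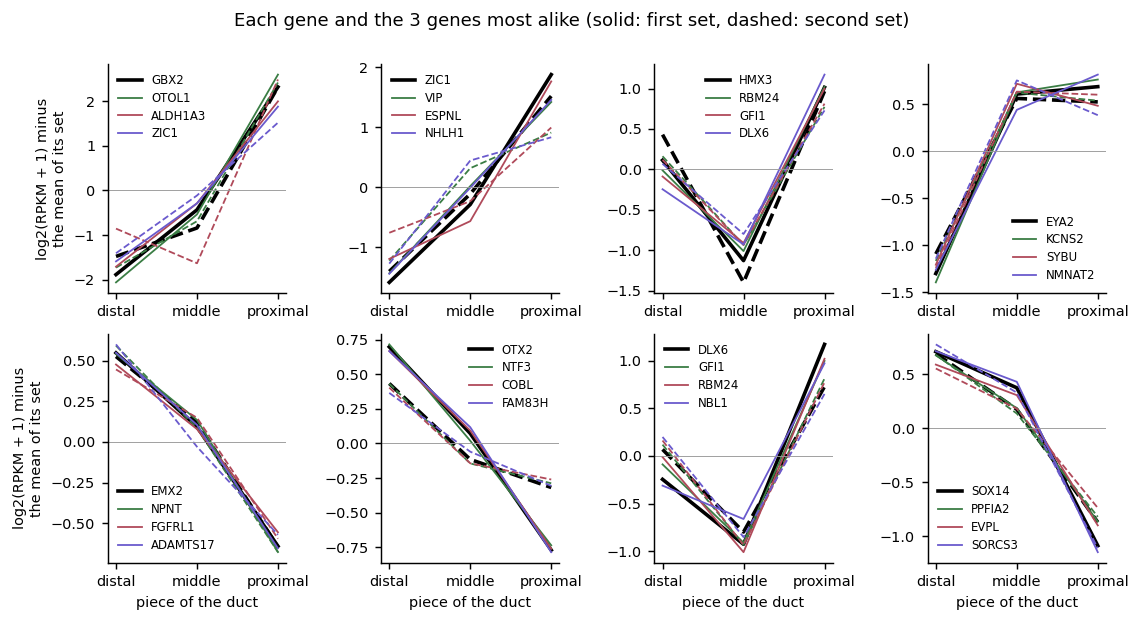
Profiles of each gene (black) and of the 3 genes most alike to it (coloured) over the distal, middle and proximal piece, as log2(RPKM + 1) minus the mean of the set, with solid lines for the first and dashed lines for the second set. The vertical axes differ between panels. HMX3 and DLX6 share GFI1 and RBM24 as near matches, and OTX2 and its matches have a shallower slope in the second set.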

How the data were processed

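RNA was sequenced from 6 pooled libraries of the chicken cochlear duct, 2 per region. Per the labels' protocols, polyadenylated RNA was selected, fragmented and copied with random primers, with one of 2 Illumina kits, and the kit of each library is not stated. The authors deposited RPKM values per gene. TopHat 1.4.0 and Partek 6.6 are named in the submitters' processing notes, and the sources used here give no build, gene models or strand setting. Column names tie each library to a region and to a first or second set, not to a sample record. The labels say that separate biological replicates were made but not how many ducts entered a pool. The entry with library totals was left out of all tests.

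Values were transformed to log2(RPKM + 1), a scale that understates changes of low genes, and genes with at least 1 RPKM in at least 2 libraries were fitted in R 4.3.3 with limma 3.58.1 (region as a factor, empirical Bayes with a trend, two-sided, Benjamini-Hochberg over all 12559 genes tested). The threshold was an adjusted p below 0.05. The model without a set term has 3 residual degrees of freedom and the one with the set as a replicate block 2. The sets pair the libraries by the column names, and differences between sets correlated across genes at 0.655 (distal and proximal), 0.885 (distal and middle) and 0.659 (middle and proximal). The code was tested on simulated data. Read counts were not rebuilt, so no counting interval is given.

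The 8 genes and the lists were chosen with earlier results of these data known. By rule, the 8 genes, up to 8 relatives and 8 other patterning genes by size of the distal minus proximal difference, and the 3 genes most alike to each of the 8 were named, with some results not reported here, and DLX5, OTOP1, FGF8, ATOH1 and RBM24 values were added after the data were seen. RefSeq (GRCg7b) served for symbols and gene order, and all 8 symbols were found in it. Alternatives were the block, pseudocounts of 0.25 and 4, no filter, quantile and upper-quartile scaling, and leaving out each library. Protein and promoter sequences were not used here.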

Additional observations from a re-analysis of the deposited data

How the results depend on the processing

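The sign of the middle offset held for 7 of the 8 genes under all 20 alternatives tried for each. The offset of OTX2 was -0.03 and ran from -0.22 (without the first-set proximal library) to 0.16, being above 0 without the first-set middle (0.02) or second-set proximal library (0.16), and with the replicate block also without the first-set distal (0.067), the second-set middle (0.11) or the second-set proximal library (0.14). That of GBX2 was -0.0093 without the second-set and -1.90 without the first-set middle library. For DLX6 the size of the offset depended on the pseudocount, from -1.80 with 0.25 to -0.64 with 4. The sign of the distal minus proximal difference held for all 8 genes under these alternatives, which their choice favours. It ranged from -4.74 to -3.03 for GBX2 and from 0.72 to 2.71 for SOX14, where the pseudocount set the size.

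No gene was called for the middle against both ends without the block under any alternative, nor with it over all 6 libraries. With the block and 1 library left out, chosen after seeing the data and with 1 residual degree of freedom, the calls were 21 (first-set distal library left out), 23 (second-set distal), 6 (first-set middle), 33 (second-set middle), 212 (first-set proximal) and 2171 (second-set proximal). In these fits the offset of HMX3 lay between -2.09 and -1.69 and that of DLX6 between -1.46 and -1.13. That of GBX2 lay between -1.26 and -0.65 and that of EYA2 between 0.80 and 0.96. The genes were chosen in these same libraries, HMX3 and DLX6 perhaps for the trough, so these values are a description.

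Between distal and proximal, 0 genes were called without the block and 66 with it (31 higher, 35 lower). The block gave 0 with no filter, 257 with quantile normalization, and, with 1 library left out, 118 (first-set distal), 397 (second-set distal), 589 (first-set middle), 600 (second-set middle), 798 (first-set proximal) and 6994 (second-set proximal). Without the block, 1 was called without the first-set and 3 without the second-set middle library, and 0 under the other alternatives without it. The cause of these differences was not tested. Depth limits the low first-set values most, at 2.4 reads per kilobase for SOX14 (proximal), 14.7 for ZIC1 (distal), and 15.5 and 15.7 for DLX6 (distal and middle).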
